A study of Mus musculus with 15 samples.

Results

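The Rab family of small GTPases was examined in mouse neural stem cells kept as primary neurosphere cultures and hybridised to 15 Affymetrix arrays. Members were all probe sets whose single platform gene symbol is Rab followed by a number, with at most a letter and a further digit behind it, and 95 of 22626 tested probe sets met this rule. They stand for 50 genes, of which 23 had 1 probe set and 27 had several, Rab2a most with 7. The cells came from female mice 6 weeks old of the strain labelled C57/B16, and RNA was taken 48 h after stimulation. The sample titles give 4 groups. These were polysomal RNA of cultures treated with CD95L-T4 (n = 3), polysomal RNA of control cultures (n = 4), total RNA of CD95L-T4 cultures (n = 4) and total RNA of control cultures (n = 4). CD95L-T4 is a construct in which CD95 ligand, the partner of the CD95 (Fas) receptor, forms trimers. For treated samples the treatment field says no more than the cell name, so the titles decided the groups. The mirVana kit served for total RNA, whose molecule is given as total RNA, whereas polysomal RNA was extracted with phenol and chloroform and its molecule is given as polyA RNA. Fraction, extraction and RNA type therefore cannot be told apart in any comparison of polysomal with total RNA.

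Rab proteins are molecular switches that mark the membranes of the cell. In the GTP-bound form each one recruits effectors (tethers, motors, coat adaptors) to its own compartment, and in the GDP-bound form it is drawn off the membrane by GDP dissociation inhibitors. Exchange factors load GTP, GTPase activating proteins end the active state, and a prenyl anchor added by Rab geranylgeranyl transferase holds the protein in the bilayer. In neural stem cells this traffic carries receptors, adhesion molecules and Notch pathway proteins to and from the surface. Polysomal RNA is messenger RNA loaded with several ribosomes, so that a comparison with total RNA describes how transcripts are spread between the pools.

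The array medians lay between 6.83 and 6.98 on the deposited log2 scale in all groups, and differences between pools are relative to the other transcripts of the same arrays. The stem cell marker list (Sox2, Nes, Pax6 and 9 others) averaged 9.30 to 9.45 in CD95L-T4 polysomal RNA, 9.30 to 9.40 in control polysomal RNA, 9.56 to 9.62 in CD95L-T4 total RNA and 9.56 to 9.62 in control total RNA. The 11 measured neuronal markers averaged 4.79 to 4.98 over all arrays, and the microglial, endothelial and fibroblast lists averaged between 3.99 and 5.20. Oligodendrocyte lineage markers averaged 7.26 to 7.73 and astrocyte markers 7.29 to 7.46. In these bulk samples fewer cells of a type and less RNA per cell cannot be told apart. The difference between 3′ and 5′ actin control probe sets, which reads how complete the labelled RNA is, was 0.59 to 1.03 in CD95L-T4 polysomal RNA, 0.74 to 0.81 in control polysomal RNA, 0.32 to 0.46 in CD95L-T4 total RNA and 0.28 to 0.57 in control total RNA. It was thus higher on every polysomal array than on every total RNA array, and its part in the fraction differences was not tested. CD95L-T4 polysomal replicate 2 had a mean of 8.38 over the poly-A spike-in controls, the highest of the 15 arrays. CD95L-T4 polysomal replicate 3 had the highest actin difference, 1.03. Replicates 2 and 3 of this group also shared the lowest correlation within a group, 0.9936. Gene calls that rest on replicate 2, each gene taken by its brightest probe set, are given with and without it.

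In both kinds of culture more Rab transcripts were higher than lower in polysomal RNA relative to total RNA. Of the 95 probe sets, 43 were higher and 12 lower in CD95L-T4 cultures, and 36 were higher and 17 lower in control cultures (limma, Benjamini-Hochberg adjusted p under 0.05 over all probe sets). Across all probe sets the background was 26.7% higher and 24.6% lower in CD95L-T4 cultures, and 29.8% higher and 26.3% lower in control cultures, so that the Rab shares of 45.3% higher in CD95L-T4 cultures and 37.9% higher in control cultures lay above it. The shares of lower Rab probe sets, 12.6% in CD95L-T4 cultures and 17.9% in control cultures, lay below it. The median polysomal minus total difference of the Rab probe sets was 0.21 in CD95L-T4 cultures, where that of all probe sets was 0.04, and 0.15 in control cultures, where it was 0.06. With array medians set equal, 51 Rab probe sets were higher and 7 lower in CD95L-T4 cultures, and 48 were higher and 12 lower in control cultures. Medians were 6.85 to 6.88 in CD95L-T4 polysomal and 6.83 to 6.85 in control polysomal RNA. They were 6.92 to 6.98 in CD95L-T4 total and 6.93 to 6.95 in control total RNA. Equal medians thus raise polysomal relative to total values for all probe sets. The share of all probe sets called in this setting was not counted.

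Each gene was then represented by its brightest probe set. Of the 50 Rab genes, 31 were higher and 5 lower in polysomal RNA of CD95L-T4 cultures, against a background of 29.6% higher and 21.8% lower over 12393 genes. In control cultures 26 were higher and 6 lower, that is 52% and 12%, against a background of 33.5% higher and 23.2% lower. Both cultures called 32 probe sets higher and 12 lower, and none was called in opposite directions. A further 11 were called only in CD95L-T4 cultures, all higher, and 9 only in control cultures, and no difference between the cultures passed the test of the difference itself, as described below for the response to CD95L-T4. Without CD95L-T4 polysomal replicate 2 the counts in CD95L-T4 cultures were 47 higher and 9 lower.

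**Figure D1:**
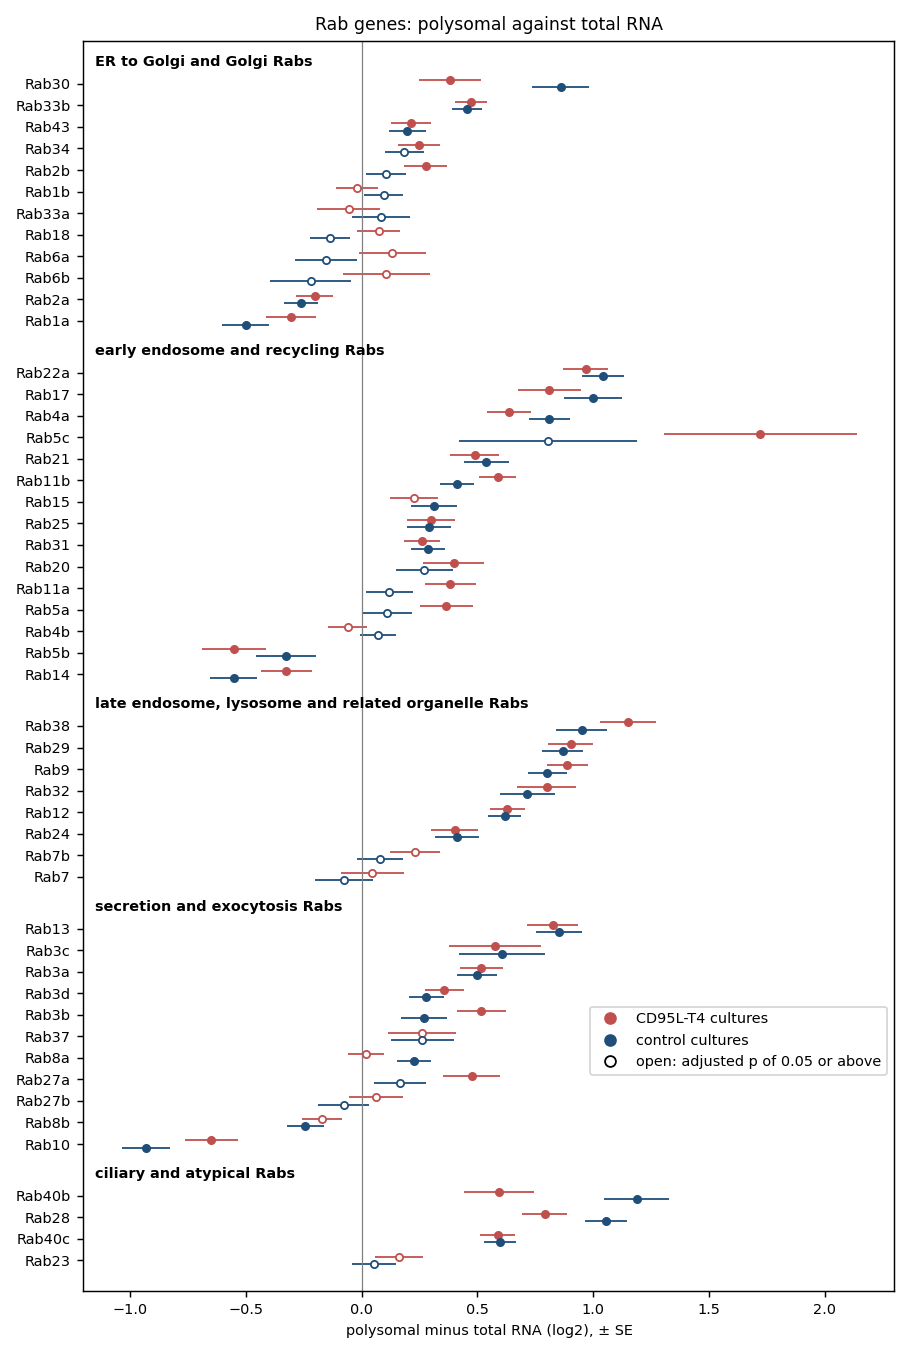
Polysomal minus total RNA on the log2 scale (x axis, points with standard errors) for the 50 Rab genes, each by its brightest probe set and grouped by role, in CD95L-T4 cultures (red) and control cultures (blue). Filled points passed an adjusted p of 0.05; most filled points lie right of 0, and Rab10, Rab14, Rab1a, Rab2a and Rab5b lie left of it in both cultures.

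The late endosomal and lysosomal Rabs stood highest among the larger role groups. Of 8 measured, 6 were higher and none lower in either culture, with a median difference of 0.71 in CD95L-T4 cultures and 0.67 in control cultures, while the median of all genes was 0.07 in CD95L-T4 cultures and 0.10 in control cultures. Rab38, which acts with Rab32 in the delivery of cargo to melanosomes and other lysosome-related organelles, had 6.95, 6.94 and 6.78 on the CD95L-T4 polysomal arrays against 6.08, 5.81, 5.39 and 5.68 on the CD95L-T4 total arrays. In control cultures it had 6.76, 6.80, 6.82 and 6.83 in polysomal RNA against 5.88, 5.70, 5.83 and 6.00 in total RNA. No polysomal array overlapped a total RNA array, and the difference was 1.15 ± 0.12 in CD95L-T4 cultures (SE, limma adjusted p = 3.1e-07) and 0.95 ± 0.11 in control cultures (adjusted p = 9.2e-07). Rab29, a lysosomal Rab that binds the kinase LRRK2, had 6.18, 6.26 and 6.02 in polysomal RNA against 5.45, 5.13, 5.06 and 5.36 in total RNA of CD95L-T4 cultures, and 6.08, 6.28, 6.13 and 6.09 in polysomal RNA against 5.37, 5.28, 5.20 and 5.26 in total RNA of control cultures. The pools again did not overlap, and its difference was 0.90 ± 0.10 in CD95L-T4 cultures (adjusted p = 4.6e-07) and 0.87 ± 0.09 in control cultures (adjusted p = 2.2e-07). Rab9, which carries mannose 6-phosphate receptors from late endosomes back to the Golgi, differed by 0.89 ± 0.09 in CD95L-T4 cultures and 0.80 ± 0.08 in control cultures. Rab32 differed by 0.80 in CD95L-T4 cultures and 0.72 in control cultures. Rab12, which sends transferrin receptors to degradation, differed by 0.63 in CD95L-T4 cultures and 0.62 in control cultures. Rab24, an atypical Rab tied to autophagy, differed by 0.40 in CD95L-T4 cultures and 0.41 in control cultures. The exceptions were Rab7, the defining Rab of the late endosome, at 0.05 ± 0.13 in CD95L-T4 cultures and -0.07 ± 0.13 in control cultures, and its relative Rab7b at 0.23 ± 0.11 in CD95L-T4 cultures and 0.08 ± 0.10 in control cultures. Neither passed the test in either culture, although Rab7b passed in CD95L-T4 cultures without CD95L-T4 total replicate 4 (0.32, adjusted p = 0.015). A second Rab7 probe set (1448159_at) did not pass there with all arrays (adjusted p = 0.19). It was called higher in CD95L-T4 cultures without polysomal replicate 2 (0.36, adjusted p = 0.013).

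Among 15 early endosomal and recycling Rabs, 11 were higher and 2 lower in CD95L-T4 cultures and 8 were higher and 2 lower in control cultures. Rab22a, an early endosomal Rab that also serves recycling, had 9.78, 10.28 and 9.88 in polysomal RNA against 9.01, 8.93, 9.16 and 8.95 in total RNA of CD95L-T4 cultures. In control cultures it had 10.06, 10.13, 10.12 and 10.09 in polysomal RNA against 9.03, 9.09, 9.09 and 9.02 in total RNA, so that the pools were about as far apart in either culture. The fitted difference was 0.97 ± 0.10 in CD95L-T4 cultures (adjusted p = 2.4e-07) and 1.04 ± 0.09 in control cultures (adjusted p = 2.6e-08). Rab17, best known from epithelial recycling endosomes, had 6.03, 6.35 and 6.32 in polysomal RNA against 5.34, 5.41, 5.51 and 5.43 in total RNA of CD95L-T4 cultures, and 6.25, 6.13, 6.58 and 6.84 in polysomal RNA against 5.37, 5.60, 5.35 and 5.48 in total RNA of control cultures. The pools did not overlap, and the differences were 0.81 ± 0.14 in CD95L-T4 cultures and 1.0 ± 0.13 in control cultures. Rab4a, the Rab of fast recycling to the surface, differed by 0.64 in CD95L-T4 cultures and 0.81 in control cultures, whereas its paralog Rab4b differed by -0.06 in CD95L-T4 cultures and 0.07 in control cultures and did not pass. Rab21, which binds integrins during their endocytosis, differed by 0.49 in CD95L-T4 cultures and 0.54 in control cultures. Rab11b of the recycling endosome differed by 0.59 in CD95L-T4 cultures and 0.41 in control cultures. The brightest probe set of its paralog Rab11a differed by 0.38 in CD95L-T4 cultures and by 0.12 in control cultures, where it did not pass. A second Rab11a probe set (1434549_at) was called higher in both cultures. It was at 0.46 ± 0.11 in CD95L-T4 cultures (limma adjusted p = 0.0018) and 0.26 ± 0.10 in control cultures (adjusted p = 0.038). That control call was lost without control polysomal replicate 2 or 4 or any 1 of the control total arrays (adjusted p = 0.053 to 0.13). Rab25 was higher by 0.30 in CD95L-T4 cultures and 0.29 in control cultures. Rab15, an endosomal Rab known from neurons, differed by 0.23 in CD95L-T4 cultures, where it did not pass (adjusted p = 0.084), and was higher by 0.31 in control cultures. Rab20 was higher by 0.40 in CD95L-T4 cultures and stood at 0.27 in control cultures, where it did not pass. Its signal was low, at 3.12 to 3.90 over all arrays and far below the array medians. Whether these cells express Rab20 was not tested.

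Some of these calls rested on 1 array. In CD95L-T4 cultures the brightest probe set of Rab11a lost its call without polysomal replicate 1 (adjusted p = 0.057), while no array left out ended that of 1434549_at. Rab20 lost its call there without polysomal replicate 2 (adjusted p = 0.090), while Rab15 gained one without polysomal replicate 3 (adjusted p = 0.019). Rab25 lost its call in CD95L-T4 cultures without polysomal replicate 3 (adjusted p = 0.11), total replicate 2 (adjusted p = 0.050) or total replicate 4 (adjusted p = 0.055), and in control cultures without polysomal replicate 3 (adjusted p = 0.068). Rab20 passed in control cultures without polysomal replicate 3 (adjusted p = 0.0055).

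The Rab5 trio, which governs fusion of early endosomes, did not move as one. Rab5b was lower in polysomal RNA, with -0.55 ± 0.14 in CD95L-T4 cultures and -0.33 ± 0.13 in control cultures, where the call was lost on leaving out any of 5 arrays (polysomal replicate 2 or 3, or total replicate 2, 3 or 4, adjusted p = 0.073 to 0.14) and with equal array medians (adjusted p = 0.12). Rab5a differed by 0.37 ± 0.12 in CD95L-T4 cultures (adjusted p = 0.013) and by 0.11 ± 0.11 in control cultures, where it did not pass. Leaving out polysomal replicate 1 (adjusted p = 0.055) or 3 (adjusted p = 0.10) ended its call in CD95L-T4 cultures. Rab5c was uneven from array to array, with 8.47, 8.02 and 10.20 in polysomal RNA against 6.74, 7.75, 6.85 and 7.36 in total RNA of CD95L-T4 cultures, and 7.92, 7.88, 8.18 and 8.25 in polysomal RNA against 7.68, 8.0, 6.74 and 6.59 in total RNA of control cultures. Its standard errors of 0.42 in CD95L-T4 cultures and 0.38 in control cultures were the widest of the family, and the difference passed in CD95L-T4 cultures (1.72, adjusted p = 0.0019) and not in control cultures (0.81, adjusted p = 0.086), where it passed without total replicate 2 (1.05, adjusted p = 0.032). Rab14, which moves between the Golgi and early endosomes, was lower and is described with its several probe sets below.

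The Golgi Rabs were divided. Of 12 measured, 5 were higher and 2 lower in CD95L-T4 cultures and 3 were higher and 2 lower in control cultures, with medians of 0.12 in CD95L-T4 cultures and 0.09 in control cultures, close to those of all genes. The 2 lower members in either culture were Rab1a and Rab2a. Their paralogs did not share the call: Rab1b was at -0.02 in CD95L-T4 cultures and 0.10 in control cultures, and Rab2b is given below. Rab1a, which tethers vesicles arriving from the endoplasmic reticulum, had 12.43, 11.93 and 12.39 in polysomal RNA against 12.62, 12.50, 12.56 and 12.54 in total RNA of CD95L-T4 cultures, and 11.89, 12.09, 12.13 and 12.21 in polysomal RNA against 12.46, 12.61, 12.61 and 12.64 in total RNA of control cultures. Each polysomal array lay below each total RNA array, and the difference was -0.30 ± 0.11 in CD95L-T4 cultures (adjusted p = 0.025) and -0.50 ± 0.10 in control cultures (adjusted p = 0.00035). These values are of its brightest probe set. A second Rab1a probe set (1448210_at), with overlapping arrays, passed in neither culture. It was at 0.12 ± 0.11 in CD95L-T4 cultures and -0.075 ± 0.10 in control cultures. Without polysomal replicate 2 it was called higher in CD95L-T4 cultures (0.285, adjusted p = 0.017). Rab2a, which acts at the intermediate compartment, had 10.87, 10.65 and 10.85 in polysomal RNA against 11.09, 11.02, 10.97 and 10.89 in total RNA of CD95L-T4 cultures, and 10.61, 10.73, 10.69 and 10.85 in polysomal RNA against 10.94, 11, 11.02 and 10.97 in total RNA of control cultures. The pools did not overlap, and its difference was -0.20 ± 0.08 in CD95L-T4 cultures (adjusted p = 0.043) and -0.26 ± 0.07 in control cultures (adjusted p = 0.0058). Without CD95L-T4 polysomal replicate 2 the CD95L-T4 cultures called neither Rab1a (-0.14, adjusted p = 0.20) nor Rab2a (-0.13, adjusted p = 0.19). Leaving out total replicate 1 also ended the call of Rab1a there (adjusted p = 0.057), leaving out total replicate 1, 2 or 3 that of Rab2a (adjusted p = 0.058 to 0.11), and equal array medians ended both (Rab1a adjusted p = 0.099, Rab2a adjusted p = 0.23). In control cultures no array left out ended either call.

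By their brightest probe sets, Rab30, Rab33b and Rab43 were the Golgi Rabs higher in both cultures. Rab33b, which binds the autophagy protein Atg16l1, differed by 0.47 in CD95L-T4 cultures and 0.46 in control cultures, and no array left out changed it. Rab30 differed by 0.38 in CD95L-T4 cultures, a call lost without polysomal replicate 2 or 3 or total replicate 2 (adjusted p = 0.070 to 0.13), and by 0.86 in control cultures. Rab43 differed by 0.21 in CD95L-T4 cultures and 0.20 in control cultures, and leaving out any 1 of 5 arrays in CD95L-T4 cultures or of 7 in control cultures ended the call. A second Rab43 probe set (1451670_at) was called in neither culture, at -0.08 in CD95L-T4 cultures and 0.11 in control cultures. The brightest probe sets of Rab34, a Golgi Rab needed for primary cilia, and Rab2b were higher in CD95L-T4 cultures, Rab34 by 0.25 and Rab2b by 0.28. These 2 probe sets were not called in control cultures, where Rab34 stood at 0.19 and Rab2b at 0.11. Both calls were lost without CD95L-T4 polysomal replicate 1 or 3, where the highest adjusted p was 0.13 for Rab34 and 0.12 for Rab2b. They were also lost without single total RNA arrays, replicate 1 or 2 for Rab34 and replicate 4 for Rab2b, while Rab34 passed in control cultures without polysomal replicate 1 (adjusted p = 0.025) or 2 (adjusted p = 0.037). A second Rab34 probe set (1416590_a_at) was called higher in both cultures. It differed by 0.365 in CD95L-T4 cultures, where no array left out ended the call, and by 0.235 in control cultures (limma adjusted p = 0.031). That control call was lost without control polysomal replicate 3 or 4 or control total replicate 3 or 4 (adjusted p = 0.063 to 0.11). Rab6a, the main Rab of retrograde Golgi transport, differed by 0.13 ± 0.14 in CD95L-T4 cultures and -0.15 ± 0.13 in control cultures, and Rab6b, Rab33a, Rab1b and the brightest probe set of Rab18 likewise did not pass in either culture. A second Rab18 probe set (1420899_at) had 9.84, 9.42 and 9.43 in polysomal RNA against 10.04, 9.88, 9.87 and 9.69 in total RNA of CD95L-T4 cultures, and 9.52, 9.68, 9.35 and 9.46 in polysomal RNA against 9.81, 10.05, 9.93 and 10.13 in total RNA of control cultures. The pools overlapped in CD95L-T4 cultures and not in control cultures, and it was called lower in both, at -0.31 ± 0.12 in CD95L-T4 cultures (adjusted p = 0.036) and -0.48 ± 0.11 in control cultures (adjusted p = 0.0010). Leaving out any of 5 arrays (polysomal replicate 2 or 3, or total replicate 1, 2 or 3, adjusted p = 0.057 to 0.15) or setting array medians equal (adjusted p = 0.11) ended its call in CD95L-T4 cultures. Without CD95L-T4 polysomal replicate 2, Rab6a (0.36, adjusted p = 0.015) and Rab6b (0.39, adjusted p = 0.049) passed in CD95L-T4 cultures.

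Of 11 Rabs of secretion and exocytosis, 6 were higher and 1 lower in CD95L-T4 cultures and 6 were higher and 2 lower in control cultures. All 4 members of the Rab3 family, which regulates docking of secretory and synaptic vesicles, were higher in both cultures by their brightest probe sets. Not all probe sets shared the call. For Rab3c 1 of 3 was higher in CD95L-T4 cultures and 2 in control cultures. For Rab3d 2 of 4 were higher in CD95L-T4 cultures and 1 in control cultures, and none of either gene was lower. Rab3a differed by 0.52 ± 0.09 in CD95L-T4 cultures and 0.50 ± 0.09 in control cultures, Rab3b by 0.52 in CD95L-T4 cultures and 0.27 in control cultures, Rab3c by 0.58 in CD95L-T4 cultures and 0.61 in control cultures, and Rab3d by 0.36 in CD95L-T4 cultures and 0.28 in control cultures. The call of Rab3c in CD95L-T4 cultures was lost without polysomal replicate 1 or 3 or total replicate 3 or 4 (adjusted p = 0.051 to 0.18), and that of Rab3b in control cultures without polysomal replicate 4 or total replicate 1 or 2 (adjusted p = 0.058 to 0.11). Of the 11 neuronal markers, 1 was higher and 1 lower in polysomal RNA of control cultures. Rab13, which delivers cargo to cell junctions, had 8.98, 9.12 and 8.96 in polysomal RNA against 8.49, 8.17, 7.94 and 8.18 in total RNA of CD95L-T4 cultures, and 9.10, 9.10, 9.23 and 9.14 in polysomal RNA against 8.31, 8.48, 8.13 and 8.24 in total RNA of control cultures. The pools did not overlap, with a difference of 0.83 ± 0.11 in CD95L-T4 cultures and 0.85 ± 0.10 in control cultures.

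Rab10, which drives exocytosis of GLUT4 vesicles and basolateral cargo, had the largest negative difference of the 50 genes. Its brightest probe set (1453095_at) had 10.55, 10.14 and 10.74 in polysomal RNA against 11.19, 11.09, 11.11 and 11.11 in total RNA of CD95L-T4 cultures, and 10.09, 10.18, 10.33 and 10.43 in polysomal RNA against 11.12, 11.18, 11.18 and 11.27 in total RNA of control cultures. Every polysomal array lay below every total RNA array, and the difference was -0.65 ± 0.11 in CD95L-T4 cultures (adjusted p = 0.00011) and -0.93 ± 0.11 in control cultures (adjusted p = 6.5e-07). Its close relatives differed in direction: Rab8b was at -0.17 ± 0.09 in CD95L-T4 cultures, where it did not pass, and at -0.24 ± 0.08 in control cultures (adjusted p = 0.014, lost with equal array medians at 0.12), and Rab8a was at 0.02 ± 0.08 in CD95L-T4 cultures, where it did not pass, and at 0.23 ± 0.07 in control cultures (adjusted p = 0.013). The brightest probe set of Rab27a was higher in CD95L-T4 cultures, by 0.47 ± 0.12, and did not pass in control cultures, at 0.17 ± 0.11. It was the only 1 of the gene's 3 probe sets called in CD95L-T4 cultures, where they ran from 0.04 to 0.47. In control cultures the 3 ran from 0.17 to 0.21 and none was called. There 1425284_a_at and 1425285_a_at passed only without certain single arrays (limma adjusted p = 0.019 to 0.042) or with equal array medians. Rab8b passed in CD95L-T4 cultures without polysomal replicate 3 (-0.25, adjusted p = 0.032). Rab27b and Rab37 passed in neither culture, but Rab37, at 0.26 in both, passed in control cultures without polysomal replicate 2 (adjusted p = 0.041) or total replicate 4 (adjusted p = 0.048).

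The ciliary and atypical Rabs held the largest positive difference of control cultures. Rab40b, whose SOCS box joins it to a ubiquitin ligase, had 5.43, 5.74 and 5.41 in polysomal RNA against 5.0, 4.96, 4.86 and 4.91 in total RNA of CD95L-T4 cultures, and 5.25, 5.84, 5.56 and 5.57 in polysomal RNA against 4.62, 4.18, 4.01 and 4.66 in total RNA of control cultures (1436566_at). All polysomal values lay above all total RNA values, and the difference was 0.59 ± 0.15 in CD95L-T4 cultures (adjusted p = 0.0031) and 1.19 ± 0.14 in control cultures (adjusted p = 1.1e-06). Rab28, known from photoreceptor cilia, had 10.52, 10.92 and 10.54 in polysomal RNA against 9.90, 9.93, 9.84 and 9.81 in total RNA of CD95L-T4 cultures, and 11.10, 10.94, 10.85 and 10.77 in polysomal RNA against 9.87, 9.87, 9.85 and 9.85 in total RNA of control cultures. Its total RNA arrays lay close together and far below the polysomal ones, and its difference was 0.79 ± 0.10 in CD95L-T4 cultures (adjusted p = 2.1e-06) and 1.06 ± 0.09 in control cultures (adjusted p = 1.9e-08). Rab40c, a relative of Rab40b, differed by 0.59 in CD95L-T4 cultures and 0.60 in control cultures by its brightest probe set. A second Rab40c probe set (1424332_at) was called in neither culture. It was at 0.09 ± 0.13 in CD95L-T4 cultures (limma adjusted p = 0.59) and 0.20 ± 0.12 in control cultures (adjusted p = 0.16). Without polysomal replicate 3 it passed in CD95L-T4 cultures (0.30, adjusted p = 0.016). Rab23, a ciliary inhibitor of Hedgehog signalling, differed by 0.16 ± 0.10 in CD95L-T4 cultures and 0.05 ± 0.10 in control cultures and did not pass in either, but passed in CD95L-T4 cultures without polysomal replicate 2 (0.28, adjusted p = 0.025). A second Rab23 probe set (1422399_a_at) was lower in control cultures, at -0.47 ± 0.17 (adjusted p = 0.026), with no overlap. That call was lost with equal array medians (adjusted p = 0.060) and without control polysomal replicate 4 (adjusted p = 0.081), among other settings. In CD95L-T4 cultures it was at -0.395 ± 0.18 and did not pass (adjusted p = 0.086), but passed without polysomal replicate 1 (-0.635, adjusted p = 0.0066).

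**Figure D2:**
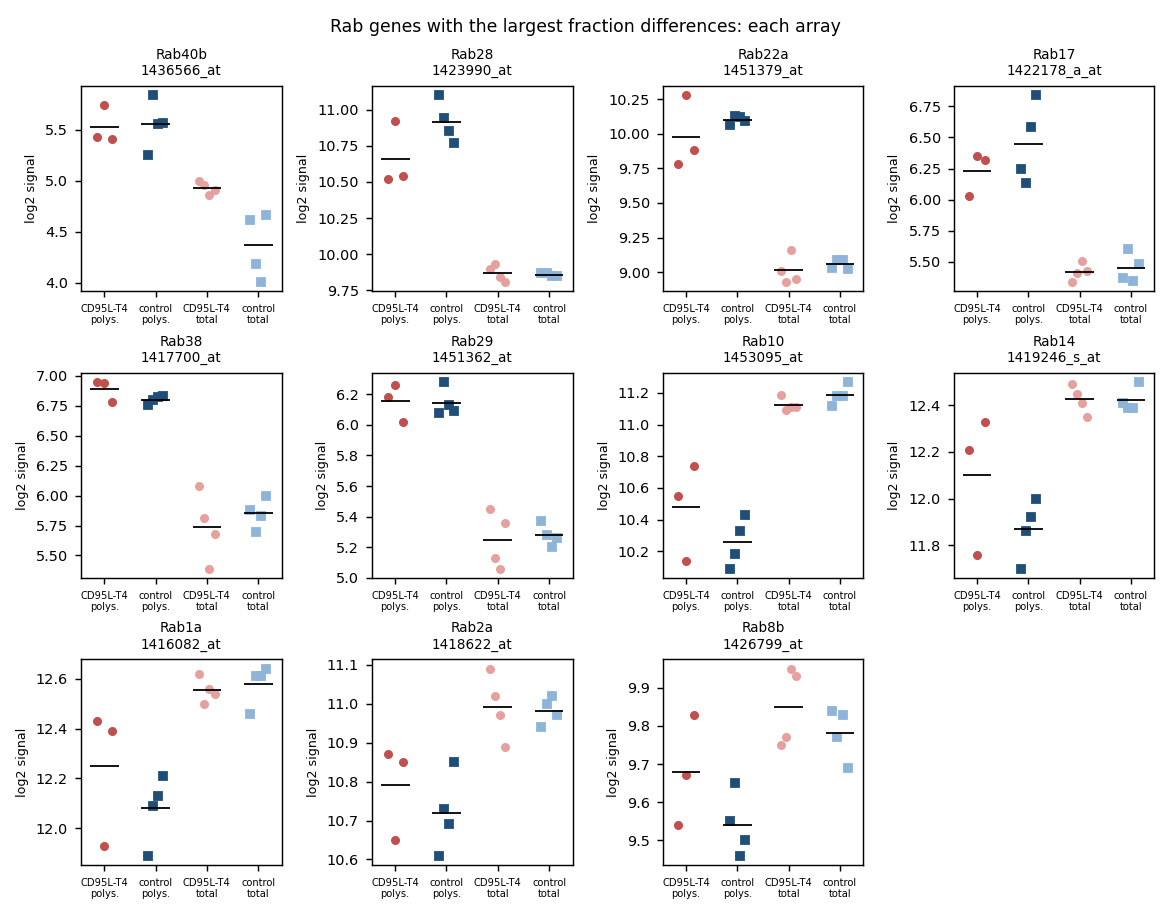
Log2 signal of every array (y axis, each panel with its own range) for the 6 Rab genes with the largest higher and the 5 with the largest lower fraction difference that met the naming rule, in the 4 groups along the x axis, with the group mean as a line. In the panels of Rab40b, Rab28, Rab22a, Rab17, Rab38 and Rab29 the polysomal points lie above the total RNA points; in those of Rab10, Rab14, Rab1a and Rab2a they lie below.

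The transcription start regions of most of these members are shown because the bases at the 5′ end of a messenger, and above all a run of C and T there, are a known feature of transcripts whose loading on ribosomes is regulated. Rab38 and Rab2a met the same naming rule but are not shown. Each window holds 15 bases before the start in lower case and the first 15 transcribed bases in capitals, on the strand of the gene, from RefSeq on GRCm38.p6. The 5 shown first were higher in polysomal RNA of control cultures and the 4 after them lower.
Rab40b (chr11:121388237-121388266, minus strand): gcggggctcttcagcTGTCAAGCTCCCCCG
Rab28 (chr5:41708165-41708194, minus strand): ggggcggggctttccGGGGGGCGGAGCCCT
Rab22a (chr2:173659830-173659859, plus strand): gtgggcggggaggtcAGGTGACCCAGCTGG
Rab17 (chr1:90967653-90967682, minus strand): aagacacatagatccAGTTAGAATCTGTGG
Rab29 (chr1:131867262-131867291, plus strand): tggcaggacggggacCGGACAAGGACTCTG
Rab10 (chr12:3309955-3309984, minus strand): gaagggcgggtgtacGTCCTTGCGTGCGTC
Rab14 (chr2:35201106-35201135, minus strand): ccggaggggcgaactGACGAAGGGGCGTGG
Rab1a (chr11:20201397-20201426, plus strand): ggcctaggcttccccAGTTCCTGGTTCGCC
Rab8b (chr9:66919691-66919720, minus strand): acacgccccctcgccAGAGGCCCCCCCTCC
The number of C or T among the first 10 transcribed bases was 6 in Rab40b, 1 in Rab28, 4 in Rab22a, 4 in Rab17 and 2 in Rab29, and 7 in Rab10, 1 in Rab14, 6 in Rab1a and 5 in Rab8b. The genes of each direction thus spanned much of the range. Over the 31 RefSeq windows of 23 higher genes the median was 5, over the 5 windows of 5 lower genes it was 5, and over all 32851 windows it was 5 as well. The first transcribed base was C in 12.9% of the windows of higher genes, in 0% of those of lower genes and in 16.3% of all windows. The median G and C content of the 300-base windows was 58.3% for the higher genes, 65.3% for the lower genes and 52.7% for all windows. Over the 54 windows of all Rab genes it was 61.2%, so that the family as a whole lay above all windows. These counts describe annotated starts and not the starts used in these cells.

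For 27 genes several probe sets reported on the same symbol, and they did not always give the same answer. On 12 of the 27 the probe sets had the same result in control cultures, either all called in the same direction or none called. None was called for Rab6a, Rab7, Rab7b, Rab27a and Rab27b, which are among these 12. All 3 of Rab10 were lower there, from -1.25 to -0.93, as were all 3 in CD95L-T4 cultures, from -0.92 to -0.65. Both probe sets of Rab28, Rab4a, Rab17, Rab21 and Rab24 were higher in both cultures. Rab22a was higher on all 3 in control cultures, from 0.30 to 1.04, and on 2 of 3 in CD95L-T4 cultures.

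Rab14 was the widest case. Its brightest probe set (1419246_s_at) had 12.21, 11.76 and 12.33 in polysomal RNA against 12.49, 12.45, 12.41 and 12.35 in total RNA of CD95L-T4 cultures, and 11.70, 11.86, 11.92 and 12.00 in polysomal RNA against 12.41, 12.39, 12.39 and 12.50 in total RNA of control cultures. The pools did not overlap, and the difference was -0.33 ± 0.11 in CD95L-T4 cultures (adjusted p = 0.019) and -0.55 ± 0.10 in control cultures (adjusted p = 0.00015). In CD95L-T4 cultures the call was lost without polysomal replicate 2 (-0.15, adjusted p = 0.15) and with equal array medians (-0.23, adjusted p = 0.076). A dim probe set (1441992_at) had 5.43, 5.30 and 5.71 in polysomal RNA against 6.85, 7.46, 6.85 and 7.49 in total RNA of CD95L-T4 cultures, and 5.21, 5.64, 5.60 and 5.54 in polysomal RNA against 7.28, 6.52, 6.51 and 6.60 in total RNA of control cultures, a difference of -1.23 ± 0.18 in control cultures. At the other end 1415686_at had 10.12, 9.67 and 10.30 in polysomal RNA against 9.60, 9.86, 9.66 and 9.92 in total RNA of CD95L-T4 cultures, and 9.73, 9.82, 9.84 and 9.99 in polysomal RNA against 10, 9.65, 9.72 and 9.78 in total RNA of control cultures. These arrays overlapped, and it did not pass in control cultures (0.06 ± 0.12). In control cultures 1419243_at had 8.69, 8.88, 8.96 and 8.99 in polysomal RNA against 9.19, 8.95, 8.94 and 8.99 in total RNA (-0.14 ± 0.12), and 1419245_at had 4.35, 4.51, 4.97 and 4.75 against 4.90, 5.03, 4.97 and 4.97 in the same pools (-0.32 ± 0.14, adjusted p = 0.055), so neither passed. The sixth, 1419244_a_at, had 9.37, 9.66, 9.62 and 9.94 in control polysomal RNA against 10.15, 10.18, 10.10 and 10.19 in control total RNA, with no overlap. Of the 6 probe sets, 3 were called lower in control cultures and none higher, and the call of 1419244_a_at (-0.51 ± 0.17, adjusted p = 0.017) was lost without control polysomal replicate 1 (adjusted p = 0.062). Without CD95L-T4 polysomal replicate 2, CD95L-T4 cultures called 1415686_at (0.45, adjusted p = 0.0039) and 1419243_at (0.32, adjusted p = 0.022) higher. With equal array medians 1415686_at was called higher there as well (0.36, adjusted p = 0.025).

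Rab31, which sorts cargo between the trans-Golgi network and endosomes, was the only gene of the 27 with calls in opposite directions in control cultures, and 1 of 3 in CD95L-T4 cultures, with Rab2a and Rab2b. The brighter probe set (1416165_at) had 11.78, 11.85, 11.92 and 11.87 in control polysomal RNA against 11.57, 11.53, 11.56 and 11.61 in control total RNA, a difference of 0.29 ± 0.07 (adjusted p = 0.0024). The other (1431691_a_at) had 9.74, 9.84, 9.56 and 9.45 in control polysomal RNA against 9.74, 10, 10.03 and 10.16 in control total RNA, a difference of -0.33 ± 0.13 (adjusted p = 0.042), and its arrays overlapped. Quantile normalization ended both calls, with an adjusted p of 0.052 for 1416165_at and 0.066 for 1431691_a_at. The call of 1431691_a_at was also lost with equal array medians (adjusted p = 0.13) and without control polysomal replicate 3 or 4 or control total replicate 2, 3 or 4 (adjusted p = 0.075 to 0.13). In CD95L-T4 cultures 1416165_at was higher by 0.26 ± 0.08, a call lost without polysomal replicate 3 (adjusted p = 0.055) and with quantile normalization (0.16, adjusted p = 0.14). There 1431691_a_at had 9.40, 9.76 and 9.05 in polysomal RNA against 9.94, 9.80, 10.05 and 9.72 in total RNA, which overlapped, and was lower at -0.47 ± 0.14 (adjusted p = 0.010), a call lost without polysomal replicate 3 (adjusted p = 0.093).

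Rab40b showed the spread within a gene in the other direction. The brighter probe set carried the large difference given above, while the dimmer one (1425756_at) had 4.34, 4.66 and 4.53 in polysomal RNA against 4.48, 4.33, 4.19 and 4.51 in total RNA of CD95L-T4 cultures, and 4.49, 4.57, 4.57 and 4.70 in polysomal RNA against 4.51, 4.36, 4.37 and 4.59 in total RNA of control cultures. Those arrays overlapped, and the difference of 0.13 ± 0.09 in control cultures did not pass (adjusted p = 0.26). For Rab2a, 2 of 7 probe sets were higher and 2 lower in CD95L-T4 cultures, where the 7 ran from -0.46 to 0.53, and 3 were lower and none higher in control cultures, where they ran from -0.60 to 0.31. In CD95L-T4 cultures the higher ones were 1449676_at at 0.53 ± 0.16 (adjusted p = 0.0082, lost without polysomal replicate 3 at 0.066) and 1436477_x_at at 0.21 ± 0.08 (adjusted p = 0.043, lost without polysomal replicate 2 or any 1 of the total RNA arrays at 0.059 to 0.22). For Rab2b, its paralog, 2 of 5 probe sets were higher and 1 lower in CD95L-T4 cultures, where the 5 ran from -0.26 to 0.29, and 2 were lower and none higher in control cultures, where they ran from -0.70 to 0.11. The lower one in CD95L-T4 cultures (1436923_at) was at -0.23 ± 0.09 (adjusted p = 0.043), a call lost without any of 5 arrays, polysomal replicate 1 or 3 or total replicate 1, 3 or 4 (adjusted p = 0.071 to 0.13), and with equal array medians (adjusted p = 0.21). Where probe sets of one gene differ, which transcripts each one detects was not tested, and probe sets ending in _s_at or _x_at can also detect related transcripts.

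**Figure D3:**
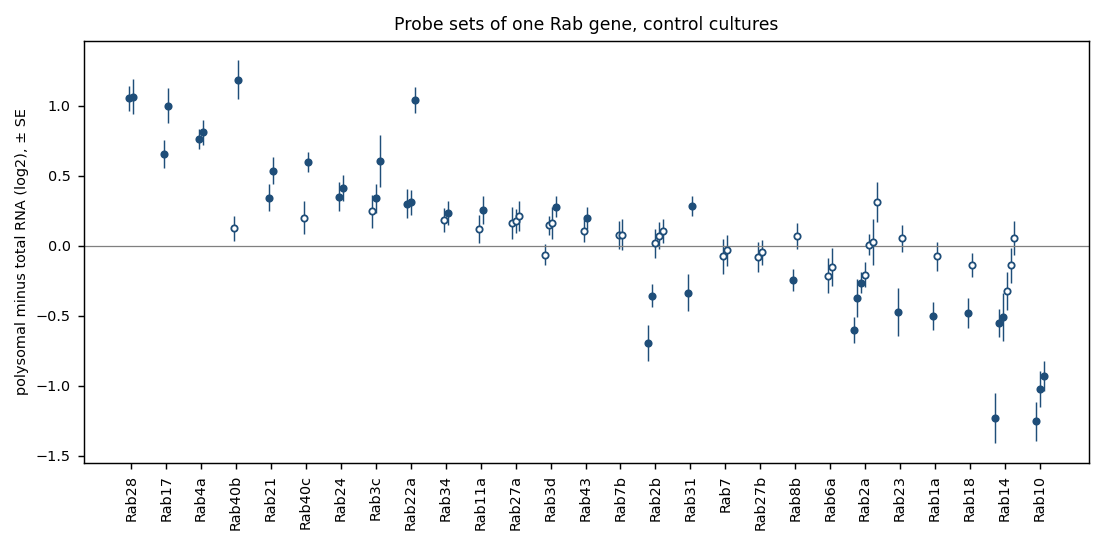
Polysomal minus total RNA on the log2 scale in control cultures (y axis, points with standard errors) for each probe set of the 27 Rab genes with several, genes ordered along the x axis by their median. Filled points passed an adjusted p of 0.05; the 3 points of Rab10 sit together below -0.9, while the 6 of Rab14 run from -1.23 to 0.06.

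CD95L-T4 against control was the comparison the cultures were set up for, and no Rab probe set passed in it. In total RNA 0 of 95 were called by limma, and the background was 0%. At an unadjusted p under 0.05 there were 5, or 5.26%, against 3.74% of all probe sets, and the smallest adjusted p of the family was 0.997. In polysomal RNA 0 were called (background 0%), 9 had an unadjusted p under 0.05, or 9.47% against 9.65% of all, and the smallest adjusted p was 0.474. For the difference of the effect between the pools 0 were called (background 0%), 6 had an unadjusted p under 0.05, or 6.32% against 4.38% of all, and the smallest adjusted p was 0.897. The median CD95L-T4 minus control difference over the 95 was 0.075 in polysomal RNA, where that of all probe sets was 0.005, and -0.01 in total RNA, where that of all was 0.01. The 95% interval lay within a change of 1.5-fold in either direction for 92 of 95 probe sets in total RNA, or 96.8% against 98.2% of all probe sets, and for 88 in polysomal RNA, or 92.6% against 95.9% of all. For the difference between the pools it did so for 70, or 73.7% against 84.2% of all.

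**Figure D4:**
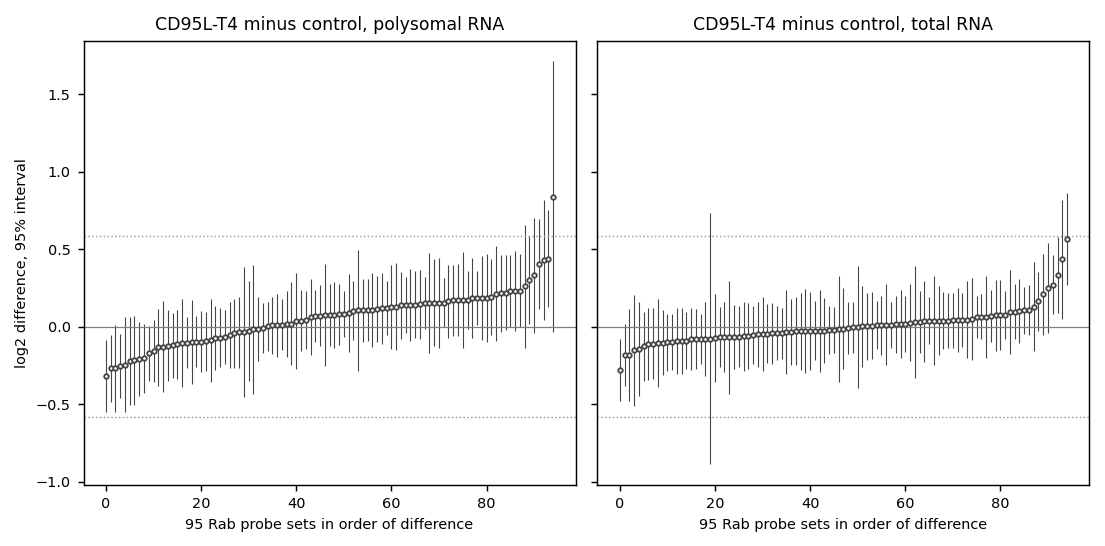
CD95L-T4 minus control on the log2 scale (y axis, points with 95% intervals) for the 95 Rab probe sets in order of size (x axis), in polysomal RNA (left) and total RNA (right), with dotted lines at a 1.5-fold change. None passed an adjusted p of 0.05; the widest interval in each panel belongs to Rab5c.

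Rab40b had the smallest unadjusted p in total RNA. Its 4 CD95L-T4 arrays at 5.0, 4.96, 4.86 and 4.91 lay above the 4 control arrays at 4.62, 4.18, 4.01 and 4.66, a difference of 0.57 ± 0.14 that did not pass (limma adjusted p = 0.997). In polysomal RNA the arrays overlapped, at 5.43, 5.74 and 5.41 in CD95L-T4 cultures and 5.25, 5.84, 5.56 and 5.57 in control cultures, and the difference was -0.03 ± 0.15. The effect of CD95L-T4 in polysomal minus that in total RNA was -0.59 ± 0.21 (adjusted p = 0.897). Rab25, an epithelial relative of Rab11, was the only probe set with an unadjusted p under 0.05 in both pools, and it lay below control in each. It had 5.48, 5.49 and 5.69 in CD95L-T4 polysomal RNA against 5.76, 5.56, 6.05 and 5.92 in control polysomal RNA, a difference of -0.27 ± 0.10 (adjusted p = 0.483). In total RNA it had 5.29, 5.19, 5.37 and 5.16 in CD95L-T4 cultures against 5.48, 5.63, 5.55 and 5.47 in control cultures, a difference of -0.28 ± 0.10 (adjusted p = 0.997) with no overlap between arrays.

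The other probe sets with an unadjusted p under 0.05 in total RNA were dimmer ones of their genes. They were Rab22a (1424504_at) at 0.27 ± 0.09, Rab3d (1418891_a_at) at 0.33 ± 0.12 and Rab14 (1441992_at) at 0.44 ± 0.18, each with a limma adjusted p of 0.997. Among genes taken by their brightest probe set, Rab30 (unadjusted p = 0.11) and Rab8a (unadjusted p = 0.17) came next in total RNA. For the difference between the pools Rab30 had an unadjusted p of 0.018 in the limma fit and Rab8a one of 0.069, and neither passed. Rab30 had 4.76, 5.22 and 5.09 in CD95L-T4 polysomal RNA against 5.04, 5.23, 5.32 and 5.58 in control polysomal RNA, and 4.77, 4.47, 4.68 and 4.65 in CD95L-T4 total RNA against 4.22, 4.67, 4.44 and 4.40 in control total RNA. The arrays overlapped in both pools, and the effect in polysomal minus that in total RNA was -0.48 ± 0.18 (adjusted p = 0.897). Rab8a had 9.43, 9.45 and 9.17 in CD95L-T4 polysomal RNA against 9.47, 9.55, 9.40 and 9.39 in control polysomal RNA, and 9.30, 9.28, 9.39 and 9.35 in CD95L-T4 total RNA against 9.17, 9.24, 9.22 and 9.27 in control total RNA. Its total RNA arrays did not overlap, its polysomal arrays did, and the difference of the effects was -0.21 ± 0.11 (adjusted p = 0.897).

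In polysomal RNA the smallest unadjusted p belonged to dimmer probe sets. Rab14 (1419245_at) was at 0.44 ± 0.15, Rab2b (1455857_a_at) at 0.41 ± 0.14 and Rab3c (1432415_at) at -0.32 ± 0.11, each with a limma adjusted p of 0.474. Among genes taken by their brightest probe set, Rab28, Rab25, Rab3d and Rab14 had the smallest. Rab28 had 10.52, 10.92 and 10.54 in CD95L-T4 cultures against 11.10, 10.94, 10.85 and 10.77 in control cultures, a difference of -0.26 ± 0.10 (adjusted p = 0.483). Rab14 (1419246_s_at) had 12.21, 11.76 and 12.33 in CD95L-T4 cultures against 11.70, 11.86, 11.92 and 12.00 in control cultures, a difference of 0.23 ± 0.11 (adjusted p = 0.518). In each case CD95L-T4 replicate 2, the array with the high poly-A controls, lay inside the range of the control arrays and the other CD95L-T4 arrays outside it. Rab3d differed by 0.19 ± 0.08 (adjusted p = 0.506), with CD95L-T4 arrays at 6.91, 6.86 and 6.93 against control arrays at 6.68, 6.60, 6.69 and 6.89, which overlapped.

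Without CD95L-T4 polysomal replicate 2, which leaves 2 arrays against 4, 12 Rab probe sets were higher and 4 lower in CD95L-T4 polysomal RNA. The arrays left are replicates 1 and 3, and replicate 3 had the highest actin difference of all arrays (1.03). That is 16.8% of the 95, against a background of 6.13% of all probe sets called in this fit. The 12 higher ones belong to 5 genes: Rab14 with 4 probe sets, Rab10 with 3, Rab6a and Rab1a with 2 each, and Rab5a with 1. For Rab14 (1419246_s_at) the difference without that array was 0.40 ± 0.09 (limma adjusted p = 0.017), and 3 others of the gene's 6 probe sets were called at 0.51 to 0.71. The remaining 2 were not called, 1415686_at at 0.37 (adjusted p = 0.071) and 1441992_at at 0.07 (adjusted p = 0.90). For the brightest Rab10 probe set it was 0.39 ± 0.09 (adjusted p = 0.027), for Rab6a 0.44 ± 0.11 (adjusted p = 0.035), for Rab1a 0.33 ± 0.09 (adjusted p = 0.041) and for Rab5a 0.36 ± 0.10 (adjusted p = 0.043). The 4 lower ones were Rab28 at -0.39 ± 0.08 (adjusted p = 0.018), Rab4b at -0.28 ± 0.07 (adjusted p = 0.038), Rab17 (1450516_a_at) at -0.34 ± 0.10 (adjusted p = 0.046) and Rab22a (1451379_at) at -0.27 ± 0.08 (adjusted p = 0.0497). With all arrays none of these 16 passed. The test of the difference between the pools called none of the 95 without that array, against a background of 0.00884%, and 36 had an unadjusted p under 0.05, or 37.9% against 15.6% of all probe sets. Rab10, Rab14 and Rab1a were also called lower, and Rab28, Rab17 and Rab22a higher, between the pools of control cultures, and these contrasts share the control polysomal arrays with the CD95L-T4 contrast. The part of the array itself, rather than of the treatment, in these values was not tested.

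**Figure D5:**
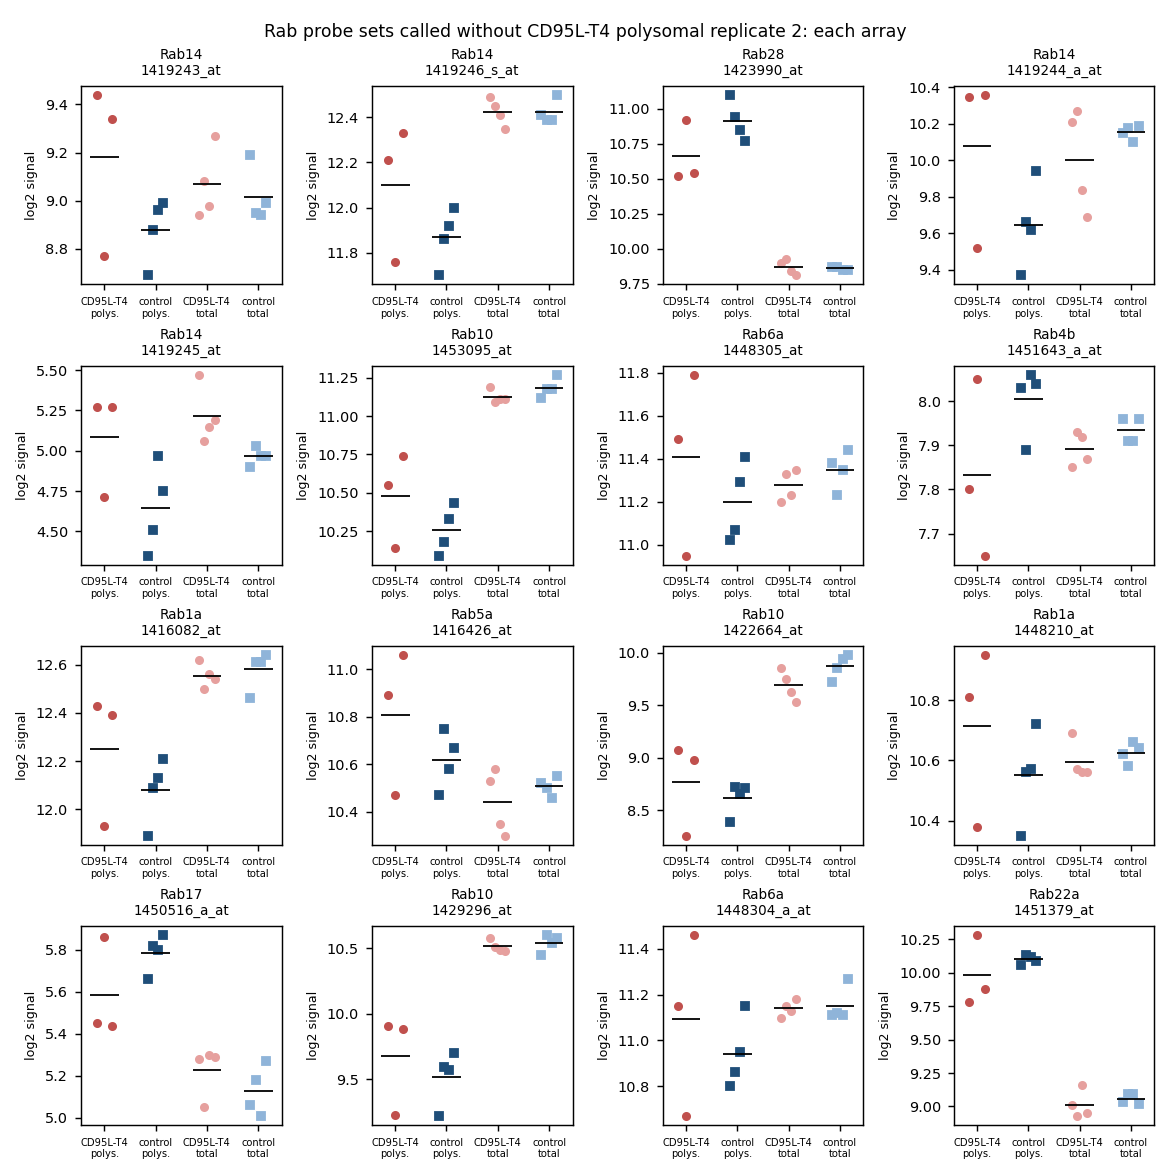
Log2 signal of every array (y axis, each panel with its own range) for the 16 Rab probe sets called in polysomal RNA without CD95L-T4 polysomal replicate 2, in the 4 groups along the x axis, points in replicate order and the group mean over all arrays as a line. The middle CD95L-T4 polysomal point is replicate 2 and lies on the control side of the other CD95L-T4 points in every panel. The probe sets were chosen because they passed only without that array, so this position follows largely from the choice.

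Each list of the machinery that loads, anchors and reads Rab proteins held higher and lower genes between the pools. None of these genes passed for CD95L-T4 in either pool. The background over all 12393 genes was 29.6% higher and 21.8% lower in CD95L-T4 cultures, and 33.5% higher and 23.2% lower in control cultures. Whether a list departed from this background was not tested. Of 10 escort, prenylation and recycling factors, 3 were higher and 3 lower in CD95L-T4 cultures (30% and 30%). In control cultures 4 were higher and 3 lower (40% and 30%). Rabif, a guanine nucleotide release factor, averaged 10.50 ± 0.16 in polysomal RNA against 9.36 ± 0.05 in total RNA of control cultures (SD, n = 4 each), a difference of 1.14 ± 0.10. Ggps1, which makes the geranylgeranyl donor, differed by 0.86 in both cultures. Rabggtb, the catalytic subunit of Rab geranylgeranyl transferase, differed by 0.48 in CD95L-T4 cultures and 0.60 in control cultures, whereas the GDP dissociation inhibitor Gdi2 was at -0.55 in CD95L-T4 cultures and -0.67 in control cultures, called lower in both. Of 24 exchange factors, 11 were higher and 3 lower in CD95L-T4 cultures (45.8% and 12.5%). In control cultures 10 were higher and 2 lower (41.7% and 8.33%), so that this list leaned towards higher in both. Trappc2, a subunit of the TRAPP complex that activates Rab1, differed by 0.99 in CD95L-T4 cultures and 0.96 in control cultures, and Rab3ip, the exchange factor of Rab8, by 0.85 in CD95L-T4 cultures and 0.86 in control cultures. Of 19 GTPase activating proteins, 6 were higher and 6 lower in CD95L-T4 cultures (31.6% each). In control cultures 7 were higher and 7 lower (36.8% each). Tbc1d20, which inactivates Rab1, was higher by 0.89 in CD95L-T4 cultures and 1.05 in control cultures, and Rab3gap2, of the complex that acts on Rab3, was lower at -0.61 in CD95L-T4 cultures and -0.69 in control cultures. Of 31 effectors, 8 were higher and 11 lower in CD95L-T4 cultures (25.8% and 35.5%). In control cultures 8 were higher and 12 lower (25.8% and 38.7%). Rilpl2, a relative of the Rab7 effector RILP, was higher by 0.86 in CD95L-T4 cultures and 0.91 in control cultures. The Rab1 tether Uso1 was lower at -0.58 in CD95L-T4 cultures and -0.61 in control cultures, and Vps39 of the HOPS complex, which acts at late endosomes, at -0.63 in CD95L-T4 cultures and -0.54 in control cultures.

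Other small GTPase families and the SNARE proteins that complete fusion gave the following counts in the same contrast. The background over all genes is the one given above for the Rab machinery. Of 13 Arf and Sar GTPases, which recruit coats to the Golgi and other membranes, 3 were higher and 7 lower in either culture, with medians of -0.30 in CD95L-T4 cultures and -0.15 in control cultures. Arf1 was lower at -1.03 ± 0.06 in CD95L-T4 cultures (adjusted p = 1.1e-09) and -0.99 ± 0.06 in control cultures (adjusted p = 3.1e-10). Of 24 Ras family GTPases, 18 were higher in CD95L-T4 cultures and 17 in control cultures and none was lower in either, with medians of 0.49 in CD95L-T4 cultures and 0.43 in control cultures. Of 34 SNARE proteins, 27 were higher and none lower in CD95L-T4 cultures and 27 were higher and 1 lower in control cultures, with medians of 0.57 in CD95L-T4 cultures and 0.54 in control cultures. Stx8, a SNARE of endosome fusion, was higher by 1.03 ± 0.07 in CD95L-T4 cultures and 1.10 ± 0.06 in control cultures. The Rab genes, with medians of 0.36 in CD95L-T4 cultures and 0.27 in control cultures, thus lay between the Arf and Sar GTPases and the SNARE proteins, and the differences between these lists were not tested.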

How the data were processed

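Values are the log2 signals the authors deposited in the series matrix, rounded to 2 decimals, for mouse Affymetrix arrays. How they were background-corrected and normalized is not given in the sources used here, and no scanner files were used here. Groups came from the sample titles, which call the replicates biological. No 2 arrays held identical values. Of 22690 probe sets, 64 control probe sets were left out. The platform table gave 1 gene for 20380 probe sets, several for 691 and none for 1555. All 95 Rab probe sets matched a RefSeq gene (GRCm38.p6, used for names and start windows).

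One mean per group was fitted over all 15 arrays with limma 3.58.1 (lmFit and eBayes, R 4.3.3), two-sided, with Benjamini-Hochberg adjustment over 22626 probe sets and a threshold of 0.05. A gene was represented by the probe set with the highest mean over all arrays. The procedure was tested on simulated data. Arrays give no counts, and their number limits the precision.

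All Rab genes are described by role. Values of each array are given for those with the largest fraction differences that met the naming rule, those whose probe sets disagreed and the genes with the smallest unadjusted p for CD95L-T4 when each is taken by its brightest probe set, and for Rab5c, Rab13 and the second Rab18 probe set, added after their values were seen. Genes of the pathway lists were named from the 3 with the smallest p between the pools of control cultures, and Gdi2 was added after its values were seen. The members and lists were chosen with earlier results of these data known. Same-numbered arrays of different groups deviated with correlations of -0.23 to 0.20 over 14 pairs, so that the numbers were not taken as pairs.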

Additional observations from a re-analysis of the deposited data

Results flagged for a closer look

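In 2 of 69 groups of 4 arrays tested over 23 named probe sets, 1 array lay far from the other arrays of its group, and chance alone marks about 1 in 20 groups. Rab1a (1416082_at) was at 12.46 in control total replicate 1, below the other control total arrays at 12.61 to 12.64. Rab14 (1441992_at) was at 7.28 in the same array, above the other control total arrays at 6.51 to 6.60. Without that array the calls of both probe sets between polysomal and total RNA of control cultures were kept.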

How the results depend on the processing

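The fraction counts kept their balance towards higher Rab probe sets under every alternative run, while their size depended on the cutoffs. Shares over all probe sets between the pools were not counted for these alternatives. A test against a log2 change of 0.5 left 7 higher and 2 lower in CD95L-T4 cultures and 12 higher and 4 lower in control cultures. Without the dimmest 50% of probe sets 27 were higher in CD95L-T4 cultures and 23 in control cultures, because fewer probe sets were tested. In CD95L-T4 cultures 7 were lower with equal array medians, 7 with only the groups compared in the fit and 7 with array weights, and 2 genes were lower when all probe sets of each gene were averaged. The cause was not tested. With the replicate block 43 were higher and 11 lower in CD95L-T4 cultures and 35 higher and 17 lower in control cultures, and no call for CD95L-T4 was added. Leaving out 1 array gave 34 to 47 higher and 9 to 12 lower in CD95L-T4 cultures, and 32 to 39 higher and 13 to 17 lower in control cultures. For CD95L-T4 in polysomal RNA it gave 0 to 12 higher and 0 to 4 lower, the upper ends both without CD95L-T4 polysomal replicate 2, and for CD95L-T4 in total RNA and the difference between pools it gave 0. Over 31 named results and 544 settings, 519 kept direction and call, 17 lost a call, 8 gained one and 0 changed direction. Among the gene calls between pools, leaving out 1 array ended 13 in CD95L-T4 cultures and 4 in control cultures. Few arrays, rounded values and unknown normalization limit all results.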
